A study of Mus musculus with 9 samples.

Results

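The genes described here encode the mitochondrial respiratory chain, the ATP synthase and the mitochondrial ribosome, together with the other RNAs that the mitochondrial genome makes. Members were the genes in any of 3 deposited tables whose symbol starts with mt-, Nduf, Uqcr, Sdh followed by a, b, c or d, Cox followed by a digit, Atp5, Mrpl or Mrps. The rule found 113 of the 8742 genes in the tables: 97 encoded in the nucleus and 16 in the mitochondrial genome. Of the nuclear members, 49 belong to the respiratory chain and ATP synthase and 48 to the mitochondrial ribosome, 31 of its large and 17 of its small subunit. GENCODE M21 holds 185 nuclear protein-coding genes whose symbols match the rule, and the members not listed in a table were not analysed here.

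Complexes I, III and IV of the inner mitochondrial membrane pass electrons from NADH to oxygen while pumping protons, complex II feeds in electrons from succinate, and complex V, the ATP synthase, uses the proton gradient to make ATP. The mitochondrial genome encodes a few core subunits of complexes I, III, IV and V plus the ribosomal and transfer RNAs needed to translate them. All other subunits, all proteins of the mitochondrial ribosome and all assembly factors come from nuclear genes, so both genomes contribute to each complex except complex II.

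RNA came from organoids, small self-organised cultures, of mouse esophageal epithelial cells harvested on day 7 after seeding, with 3 libraries in each of 3 groups and no treatment. WT organoids were labelled wild type, PN organoids as lacking Trp53 and Notch1, and PCN organoids as lacking these 2 genes and Cdkn2a. The labels state neither the mouse strain, the age, the number of clones behind each line nor whether the 3 libraries came from separate cultures, so the p-values cover no more than the spread among libraries. Each table compares 1 pair of groups and lists only genes that the authors called in it, so a member outside both tables of a group has no value for that group.

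Trp53 stood at 118 to 121 counts per 1000000 counts (CPM) in the WT libraries and at 2.27 to 3.96 CPM in the 6 knockout libraries. Notch1 ranged from 213 to 277 CPM over the WT libraries, from 141 to 154 over PN and from 66.5 to 76.9 over PCN. Cdkn2a RNA was not lower in PCN: it ranged from 6.49 to 10.3 CPM over the WT libraries, from 21.5 to 22.7 over PN and from 62.4 to 70.2 over PCN, so its level does not check the PCN label, and PN and PCN below mean the libraries labelled so. Library totals were 14695420 to 20198041 counts. Since the tables hold only genes that differed, markers could be read only where they changed. All 12 markers of esophageal epithelium were in the tables, with 2 higher and 5 lower in PN than in WT and 3 higher and 7 lower in PCN. Krt13, of differentiating cells, averaged 15880 CPM over the WT libraries, 2099 over PN and 2791 over PCN, and Krt15, of basal cells, averaged 300.4, 731 and 1644. None of the 7 fibroblast and 7 muscle markers was in the tables. Of the 7 leukocyte, 5 endothelial and 5 ciliated-cell markers, Cd68 (averages 107, 25.2 and 16.1 CPM in the same order), Esam (9.24, 5.14 and 5.14) and Cfap43 (66.2, 36.8 and 41.5) were present, and all 3 were lower in both knockout groups. The epithelial markers were in the tables because they differed between these groups, and their part in the members' values was not tested. In these bulk libraries, fewer cells of a type and less RNA per cell cannot be told apart.

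Fold changes are log2 values, given with a standard error (SE). Each edgeR adjusted p comes from the quasi-likelihood test of that package, adjusted by Benjamini-Hochberg over all the genes that the authors had adjusted over, and a gene passed below 0.05. Levels are CPM unless FPKM, which also divides by gene length, is named. The 2 comparisons with WT share the WT libraries, and PCN against PN shares libraries with both.

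The mitochondrial genome was represented by 8 of its 13 messenger RNAs, 1 of its 2 ribosomal RNAs and 7 of its 22 transfer RNAs. Of the 8 messenger RNAs, mt-Cytb, mt-Nd1, mt-Nd2 and mt-Nd4 were higher in both knockout groups than in WT. The small-subunit ribosomal RNA was lower in both, and mt-Co1, the most abundant by FPKM, was lower in PN. Against WT, 7 members were higher and 3 lower in PN, with 1 listed member short of the threshold, and 11 were higher and 2 lower in PCN, with mt-Tq too low to be fitted. The background for these counts is 34.6% of all table genes higher and 36.9% lower in PN, and 34.6% higher and 37.6% lower in PCN. Among listed mitochondrial members the median was 0.69 in PN and 0.70 in PCN, beside -0.26 and -0.28 over all genes listed for those pairs. Over all genes listed off chromosomes 12 and 14 the medians were 0.22 and 0.20.

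mt-Cytb, which encodes cytochrome b of complex III, had 901, 1028 and 823 CPM in the WT libraries, 1553, 1959 and 2020.0 in PN and 2027, 1847 and 1762 in PCN. Every knockout library stood above every WT library, and PN and PCN overlapped. The log2 fold change was 1.02 (SE 0.11, edgeR adjusted p = 1.4e-05) in PN and 1.04 (SE 0.09, edgeR adjusted p = 5.4e-07) in PCN, the largest among the messenger RNAs.

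4 further messenger RNAs with counts in all 9 libraries encode membrane subunits of complex I. mt-Nd1 had 1022, 1148 and 1038 CPM in WT, 1542, 1822 and 1930 in PN and 1871, 1787 and 1634 in PCN. mt-Nd2 had 419, 515 and 603 CPM in WT, 695, 824 and 943 in PN and 797, 761 and 681 in PCN. mt-Nd4 had 466, 541 and 472 CPM in WT, 609, 793 and 838 in PN and 815, 712 and 692 in PCN. For all 3 the knockout libraries lay above the WT libraries without overlap. The log2 fold changes were 0.73 (SE 0.09) and 0.73 (SE 0.08) for mt-Nd1 in PN and PCN, 0.69 (SE 0.14) and 0.55 (SE 0.12) for mt-Nd2, and 0.61 (SE 0.11) and 0.59 (SE 0.09) for mt-Nd4, with edgeR adjusted p from 4.6e-06 to 0.0036. The mt-Nd4 call in PN was lost without WT replicate 3 (edgeR adjusted p = 0.086, range over alternatives 9.2e-07 to 0.086).

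mt-Nd5 differed less. It had 1025, 1210 and 1197 CPM in WT, 1124, 1536 and 1468 in PN and 1529, 1246 and 1358 in PCN, so PN replicate 1 lay within the WT range. The log2 fold change in PN was 0.28 (SE 0.11, edgeR adjusted p = 0.079, not past the threshold). It was 0.27 with edgeR adjusted p = 0.0024 when the replicate number, an assumed pairing, was a block in the fit. Without PN replicate 1 it was 0.40 (edgeR adjusted p = 0.0044, range over alternatives 0.0024 to 0.43). In PCN it was 0.27 (SE 0.09, edgeR adjusted p = 0.028), a call lost without PCN replicate 1, PCN replicate 3 or WT replicate 1 (edgeR adjusted p 0.22, 0.067 and 0.11, range over alternatives 0.0051 to 0.22). In all 5 of these messenger RNAs PN replicate 1 was the lowest PN library and PCN replicate 1 the highest PCN library.

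**Figure D1:**
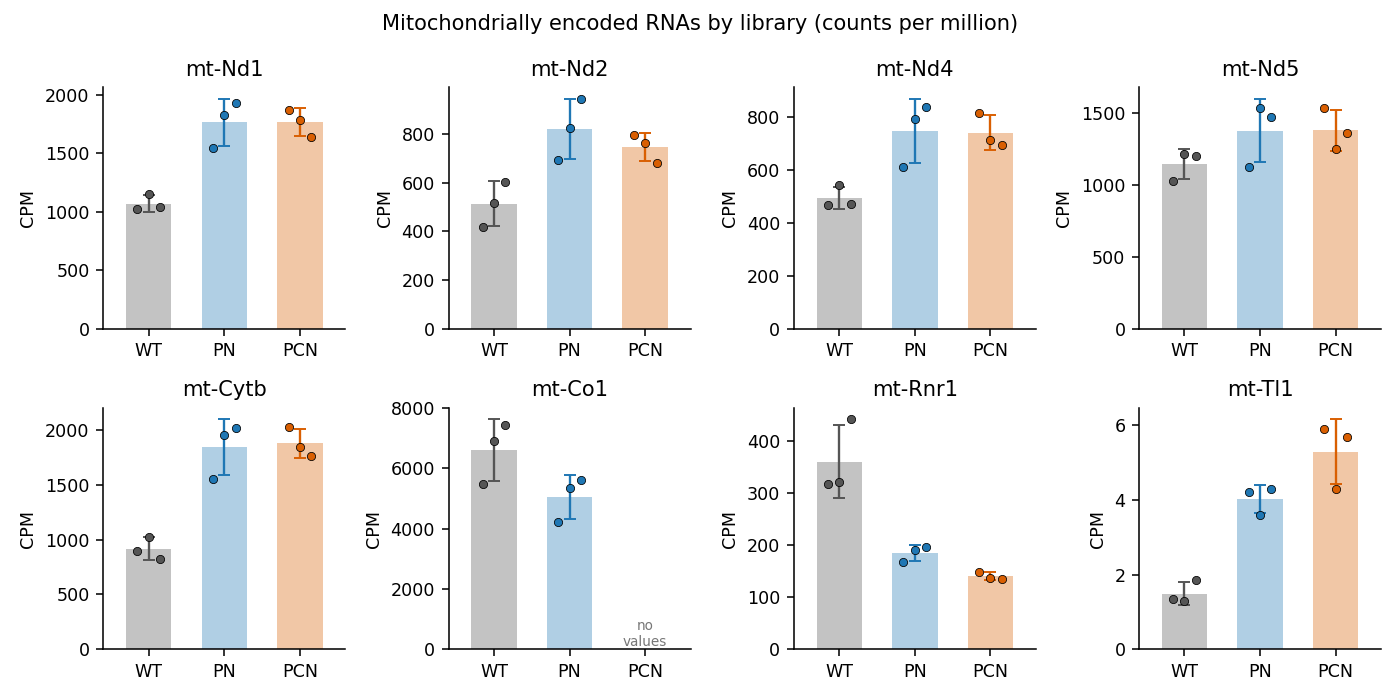
CPM (vertical axis) of 8 mitochondrially encoded RNAs in each library. Points are libraries, bars are means of 3 libraries and error bars are SD; mt-Co1 has no values in PCN. mt-Nd1, mt-Nd2, mt-Nd4 and mt-Cytb lie higher in PN and PCN than in WT, while mt-Rnr1 lies lower.

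mt-Co1, the catalytic subunit of complex IV, had 5472, 6899 and 7450 CPM in WT and 4221, 5340 and 5601 in PN, and it is not in either PCN table. The groups overlapped, since PN replicate 3 lay above WT replicate 1, while each PN library lay below the WT library of the same number. The log2 fold change was -0.38 (SE 0.13, edgeR adjusted p = 0.049). With the replicate number as a block it was -0.38 (edgeR adjusted p = 3.4e-05). The labels do not say that equal numbers pair libraries, so that p rests on an assumed pairing. Without the block, the call was lost without PN replicate 1, PN replicate 2, WT replicate 2 or WT replicate 3 (edgeR adjusted p 0.12, 0.055, 0.13 and 0.56, range over alternatives 3.4e-05 to 0.56). The call was also lost with TMM scaling (log2 fold change -0.31, edgeR adjusted p = 0.089). The count ratio of mt-Cytb to mt-Co1 was 0.165, 0.149 and 0.11 in the WT libraries and 0.368, 0.367 and 0.361 in the PN libraries, with no overlap. By FPKM, mt-Co1 was the highest member in WT (4276) and PN (3271), and mt-Nd1 the highest in PCN (1843) among those with values there.

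mt-Co2 and mt-Co3 encode the other core subunits of complex IV and had few counts: mt-Co2 147 to 216 in the WT libraries, mt-Co3 76 to 121, beside 81919 to 112455 for mt-Co1. mt-Co2 was listed for PCN against WT only, with 14.4, 11.8 and 9.74 CPM in WT and 19.6, 21.01 and 17.9 in PCN (log2 fold change 0.70, SE 0.15, edgeR adjusted p = 0.0016). mt-Co3 was listed for PN against WT only, with 5.08, 7.35 and 8.02 CPM in WT and 12.3, 11.1 and 9.41 in PN (log2 fold change 0.69, SE 0.18, edgeR adjusted p = 0.0087). Predicted genes on chromosome 1 that resemble mitochondrial genes were also higher: Gm28437 averaged 11.8 ± 1.06 CPM over the WT libraries, 17.5 ± 3.72 over PN and 20.7 ± 2.10 over PCN (SD, n = 3), and Gm10222 averaged 2.597 ± 0.758, 5.01 ± 1.47 and 6.47 ± 1.22. How far reads are shared between these and the mitochondrial genes was not tested.

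mt-Rnr1, the ribosomal RNA of the small mitochondrial ribosome subunit, was the one mitochondrial member listed in all 3 tables. It had 318, 321 and 442 CPM in WT, 169, 190 and 197 in PN and 149, 136 and 136 in PCN, with no overlap between any pair of groups. It fell by 0.95 on the log2 scale in PN (SE 0.12, edgeR adjusted p = 1.2e-04) and by 1.36 in PCN (SE 0.12, edgeR adjusted p = 2.8e-06). PCN was also below PN, with a log2 fold change of -0.40 (SE 0.06, edgeR adjusted p = 2.2e-06). It lies at chrMT:70-1024 (GRCm38) on the same strand as the 5 messenger RNAs above and upstream of them. The count ratio of mt-Cytb to mt-Rnr1 was 2.83, 3.20 and 1.86 in the WT libraries, 9.20, 10.3 and 10.3 in PN and 13.6, 13.6 and 13.0 in PCN. The RNA selection, which sets how much ribosomal and transfer RNA a library keeps, is not named in the labels used here.

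Sequences of 5 listed transfer RNAs are given 5′ to 3′ as DNA letters of the GRCm38 mitochondrial genome, placed by GENCODE M21, with the anticodon in capitals, because their small size and dense packing bear on how their counts are read.
mt-Tl1 (leucine, chrMT:2676-2750, plus strand): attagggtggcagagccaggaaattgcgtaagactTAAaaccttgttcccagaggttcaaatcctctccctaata
mt-Tl2 (leucine, chrMT:11671-11741, plus strand): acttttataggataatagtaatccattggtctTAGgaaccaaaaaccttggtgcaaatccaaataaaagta
mt-Te (glutamate, chrMT:14071-14139, minus strand): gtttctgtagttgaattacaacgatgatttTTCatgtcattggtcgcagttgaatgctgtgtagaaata
mt-Tc (cysteine, chrMT:5192-5257, minus strand): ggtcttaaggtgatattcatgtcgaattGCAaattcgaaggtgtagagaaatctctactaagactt
mt-Tp (proline, chrMT:15356-15422, minus strand): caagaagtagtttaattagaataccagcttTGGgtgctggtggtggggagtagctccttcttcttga

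mt-Tl1 directly adjoins mt-Nd1 and mt-Tl2 directly adjoins mt-Nd5, with no base between them, and mt-Te ends 5 bases from mt-Cytb. The strand setting of the counting is not given in the sources used here, and reads from an RNA of the opposite strand or from an unprocessed precursor cannot be told apart from the transfer RNA itself.

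Both leucine transfer RNAs were higher in PCN than in WT. mt-Tl1 had 1.34, 1.29 and 1.85 CPM in WT, 4.21, 3.59 and 4.28 in PN and 5.89, 4.30 and 5.69 in PCN, with log2 fold changes of 1.44 (SE 0.26, edgeR adjusted p = 6.4e-04) and 1.83 (SE 0.26, edgeR adjusted p = 6.4e-05) against WT and no overlap with WT. mt-Tl2 had 26, 43 and 57 counts in WT and 140, 88 and 102 in PCN (log2 fold change 1.05, SE 0.27, edgeR adjusted p = 0.0057). mt-Te, for glutamate, had the largest fitted change of all members but the fewest counts among those fitted: 5, 7 and 0 in WT, 20, 39 and 31 in PN and 24, 16 and 27 in PCN. Its log2 fold changes were 2.65 (SE 0.59, edgeR adjusted p = 0.0028) and 2.12 (SE 0.60, edgeR adjusted p = 0.012). The PCN call was lost without PCN replicate 3 (edgeR adjusted p = 0.054, range over alternatives 0.0071 to 0.054).

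mt-Tp, for proline, separated PCN from both other groups, with 12.02, 12.3 and 16.5 CPM in WT, 12.6, 14.4 and 13.5 in PN and 23.02, 21.9 and 17.99 in PCN. Its log2 fold change was 0.63 (SE 0.15, edgeR adjusted p = 0.0037) against WT and 0.64 (SE 0.11, edgeR adjusted p = 2.3e-05) against PN. mt-Tc, for cysteine, was the one transfer RNA that fell: 13.9, 13.4 and 13.2 CPM in WT, 5.69, 8.30 and 11.4 in PN and 8.91, 9.58 and 5.32 in PCN. It fell by 0.66 on the log2 scale in PN (SE 0.20, edgeR adjusted p = 0.018) and by 0.76 in PCN (SE 0.19, edgeR adjusted p = 0.0058), and the PN call was lost without PN replicate 1, PN replicate 2 or WT replicate 2 (edgeR adjusted p 0.067, 0.066 and 0.062, range over alternatives 0.0022 to 0.067). mt-Th, for histidine, had 25, 32 and 68 counts in WT and 159, 77 and 104 in PCN, which overlapped in CPM (log2 fold change 1.103, SE 0.34, edgeR adjusted p = 0.022). That call was lost without PCN replicate 1, PCN replicate 3, WT replicate 1 or WT replicate 2 (edgeR adjusted p 0.11, 0.053, 0.067 and 0.11, range over alternatives 4.0e-06 to 0.11). mt-Tq, for glutamine, had 1, 1 and 4 counts in WT and 19, 9 and 12 in PCN and was not fitted.

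Summed over the 10 mitochondrial members with counts everywhere, the share of all counts was 0.418%, 0.479% and 0.461% in the WT libraries, 0.572%, 0.715% and 0.743% in PN and 0.723%, 0.652% and 0.629% in PCN. Both knockout groups lay above WT without overlap, with ratios of 1.49 and 1.48 (two-sided exact permutation p = 0.1 each, the smallest that 3 against 3 allows). These members have counts everywhere only because the authors had called them as differing. The sum is therefore not independent of the calls above and adds no support to them. PCN over PN was 0.988 (exact permutation p = 0.9), with overlap. Adding mt-Co1, which only the PN and WT libraries allow, the messenger RNAs took 0.930%, 1.13% and 1.16% in WT and 0.974%, 1.23% and 1.28% in PN, which overlapped, with a ratio of 1.08 (exact permutation p = 0.5). This sum was chosen after seeing the data. The messenger RNAs mt-Nd3, mt-Nd4l, mt-Nd6, mt-Atp6 and mt-Atp8 and the large ribosomal RNA mt-Rnr2 are in no table, so the sums do not cover the whole mitochondrial output.

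More than 1 in 2 nuclear members were higher in PN than in WT, and those listed for PCN against PN were mostly lower in PCN. Of the 97, 54 (55.7%) were higher and 12 (12.4%) lower in PN than in WT, beside 34.6% and 36.9% of all table genes. Among the 69 listed for that pair these were 78.3% and 17.4%, beside 46.2% and 49.3% of all genes listed for it. In PCN against WT 23 (23.7%) were higher and 20 (20.6%) lower, beside 34.6% and 37.6% of all table genes. Among the 48 listed these were 47.9% and 41.7%, near the 45.3% and 49.2% of all genes listed. In PCN against PN 5 (5.15%) were higher and 36 (37.1%) lower, beside 20.7% and 19.4% of all table genes, and the other 56 were not listed. Among the 41 listed these were 12.2% and 87.8%, beside 50.1% and 47% of all genes listed. The median over the listed nuclear members was 0.41, 0.33 and -0.23 in the 3 comparisons in that order, beside -0.26, -0.28 and 0.16 over all genes listed. Off chromosomes 12 and 14 these medians were 0.42, 0.34 and -0.23, beside 0.22, 0.20 and 0.14. Only called genes are listed, and the sign of the median over all of them depends on the genes it covers.

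The ribosome and the respiratory chain were also counted apart. In PN against WT, 32 of the 48 ribosome members (66.7%) were higher and 4 (8.33%) lower, and 22 of the 49 respiratory chain members (44.9%) were higher and 8 (16.3%) lower. The shares over all table genes were 34.6% and 36.9%. In PCN against WT, 14 ribosome members (29.2%) were higher and 4 (8.33%) lower, and 9 respiratory chain members (18.4%) were higher and 16 (32.7%) lower, beside 34.6% and 37.6%. In PCN against PN, 4 ribosome members (8.33%) were higher and 11 (22.9%) lower, and 1 respiratory chain member (2.04%) was higher and 25 (51.0%) lower, beside 20.7% and 19.4%. Whether these divisions differ between both classes was not tested. Groups did not overlap for 65 of 69, 44 of 48 and 40 of 41 listed nuclear members in these comparisons, beside 98.6%, 98.2% and 97.8% of all genes listed.

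**Figure D2:**
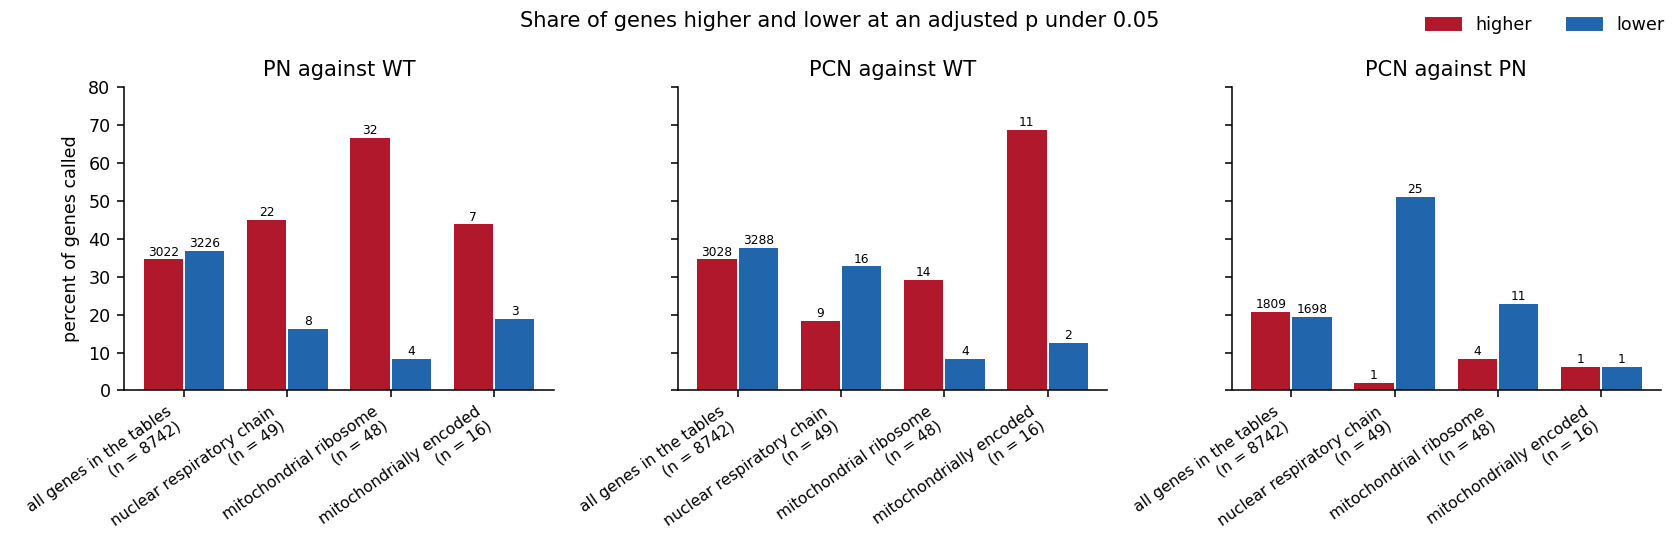
Percent of genes higher (red) or lower (blue) at an adjusted p under 0.05 (vertical axis) in each comparison, for all genes in the tables and the 3 classes of member. Numbers over the bars are gene counts; in PN against WT 32 ribosome members are higher and 4 lower.

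Libraries of 1 group also stood apart over the members. WT replicate 1 was the highest WT library for 55 of the 82 nuclear members with WT values and WT replicate 3 the lowest for 42, beside 2373 and 2960 of 7515 table genes. PN replicate 1 was the highest PN library for 51 of 92 and PN replicate 3 the lowest for 49, beside 2555 and 2234 of 7211 table genes. PCN replicate 3 was the highest PCN library for 42 of 77 and PCN replicate 2 the lowest for 37, beside 2206 and 2025 of 7216. Across members, the deviation of WT replicate 1 from its group went with log2 gene length at r = -0.465 and that of WT replicate 3 at r = 0.349, beside -0.319 and 0.21 over all table genes. Members are short, with a median listed length of 2172 bases beside 4279 over all genes. Of all table genes up to 2172 bases, 25.1% were higher and 41.7% lower in PN against WT, 20.2% and 45.1% in PCN against WT and 13.3% and 22.1% in PCN against PN. The part of gene length in the members' values was not tested. Without WT replicate 3, 52 nuclear members were higher and 11 lower in PN, and 24 higher and 20 lower in PCN. Over the omission of each library in turn, 39 to 53 were higher and 8 to 11 lower in PN. In PCN against WT these ranges were 16 to 24 and 16 to 20.

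Promoter windows of 4 nuclear members are shown as examples of the motifs that factors of nuclear respiratory gene control recognise. Windows are 300 bases from RefSeq (GRCm38.p6), 250 before to 50 after the gene start, written 5′ to 3′ on the gene's strand, with motif matches in capitals. The motifs were GCGC, any 2 bases and GCGC for NRF1, CCGGAAG for GABP and AANATGGCG for YY1, searched on both strands, and none of the matches shown overlaps another motif.
Ndufaf4 (chr4:24897833-24898132, plus strand, NRF1): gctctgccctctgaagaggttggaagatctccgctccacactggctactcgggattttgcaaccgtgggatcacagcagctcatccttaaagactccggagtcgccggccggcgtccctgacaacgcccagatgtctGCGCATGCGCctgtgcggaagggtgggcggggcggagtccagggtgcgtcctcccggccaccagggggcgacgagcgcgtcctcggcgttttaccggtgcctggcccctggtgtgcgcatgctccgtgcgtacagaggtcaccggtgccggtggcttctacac
Cox10 (chr11:64079423-64079722, minus strand, GABP and YY1): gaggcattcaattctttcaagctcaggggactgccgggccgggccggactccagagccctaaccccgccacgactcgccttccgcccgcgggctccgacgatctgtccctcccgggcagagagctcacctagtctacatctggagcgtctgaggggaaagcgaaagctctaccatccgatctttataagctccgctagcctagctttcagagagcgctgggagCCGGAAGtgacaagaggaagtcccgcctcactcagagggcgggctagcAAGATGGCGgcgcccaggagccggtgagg
Mrps11 (chr7:78782881-78783180, plus strand, YY1): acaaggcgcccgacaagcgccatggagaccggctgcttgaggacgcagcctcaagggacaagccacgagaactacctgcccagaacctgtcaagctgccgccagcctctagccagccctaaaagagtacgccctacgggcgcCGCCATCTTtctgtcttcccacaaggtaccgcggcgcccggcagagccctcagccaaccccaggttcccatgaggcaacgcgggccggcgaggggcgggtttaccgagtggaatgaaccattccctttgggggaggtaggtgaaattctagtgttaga
Mrpl52 (chr14:54426659-54426958, plus strand, GABP at 2 places): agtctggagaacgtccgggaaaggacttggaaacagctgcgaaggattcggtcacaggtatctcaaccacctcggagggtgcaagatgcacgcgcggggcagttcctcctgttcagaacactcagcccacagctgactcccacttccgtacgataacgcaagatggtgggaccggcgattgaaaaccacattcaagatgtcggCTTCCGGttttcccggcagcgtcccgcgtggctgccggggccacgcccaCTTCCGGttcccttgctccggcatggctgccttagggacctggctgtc

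The first 3 of these genes were higher in PN than in WT and Mrpl52 was lower. Of the 83 nuclear members with a window, 25.3% held the NRF1 motif and 32.5% the GABP motif, beside 6.47% and 9.14% of 27025 promoters and 13.4% and 17.1% of the promoters of table genes. The YY1 motif was in 10 of the 83, beside 675 of the 27025 and 4.69% of those of table genes. The shares were 22.9%, 27.1% and 12.5% among members higher in PN against WT, and 2, 2 and 0 of the 9 matched members that were lower held the motifs in the same order. A match says only that the letters are present.

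Complex I had 20 subunit members by name. In PN against WT 8 were higher and 5 lower, beside 34.6% and 36.9% of all table genes. In PCN against WT 2 were higher and 7 lower, beside 34.6% and 37.6%. In PCN against PN 1 was higher and 9 lower, beside 20.7% and 19.4%. Both assembly factors among the members were higher in each knockout group than in WT. Ndufaf4 had 14.8, 19.3 and 21.3 CPM in WT, 33.9, 36.5 and 38.4 in PN and 31.2, 30.9 and 30.8 in PCN, with both knockout groups clear of WT. The log2 fold change was 0.98 (SE 0.13, edgeR adjusted p = 4.0e-05) in PN and 0.75 (SE 0.13, edgeR adjusted p = 2.9e-04) in PCN. Ndufaf2, another assembly factor, had 10.4, 7.42 and 3.31 CPM in WT, 15.8, 18.3 and 15.9 in PN and 13.9, 12.3 and 14.9 in PCN, so WT replicate 3 was far below the other WT libraries. Its log2 fold change was 1.25 (SE 0.30, edgeR adjusted p = 0.0084) in PN and 0.97 (SE 0.33, edgeR adjusted p = 0.048) in PCN. The PCN call was lost without any 1 of PCN replicates 1, 2 or 3 or WT replicate 2 (edgeR adjusted p 0.11, 0.053, 0.13 and 0.066, range over alternatives 0.0011 to 0.13).

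Among the subunits, Ndufa5, an accessory subunit of the matrix arm, had 30.1, 21.2 and 21.5 CPM in WT, 42.6, 43.1 and 41.1 in PN and 37.7, 34.0 and 40.7 in PCN. Its log2 fold changes against WT were 0.81 (SE 0.13, edgeR adjusted p = 1.9e-04) and 0.63 (SE 0.14, edgeR adjusted p = 0.0022). Ndufb10 and Ndufb7, of the membrane arm, were also higher in PN, by 0.71 (SE 0.20, edgeR adjusted p = 0.021) and 0.40 (SE 0.13, edgeR adjusted p = 0.026). The Ndufb10 call was lost without PN replicate 1 (edgeR adjusted p = 0.082, range over alternatives 8.1e-05 to 0.082), and that of Ndufb7 without PN replicate 1 or 2 (0.11 and 0.065, range 7.7e-04 to 0.11). Ndufb7 was also higher in PCN, by 0.35 (SE 0.12, edgeR adjusted p = 0.035), a call lost without PCN replicate 1, 2 or 3 (edgeR adjusted p 0.06, 0.14 and 0.089, range over alternatives 0.015 to 0.14). Ndufs1, which carries iron-sulphur clusters, had 110, 110 and 113 CPM in WT, 138, 136 and 135 in PN and 119, 120 and 116 in PCN, a rise of 0.30 in PN (SE 0.06, edgeR adjusted p = 0.0019) and a fall of 0.20 in PCN against PN (SE 0.05, edgeR adjusted p = 0.0016).

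Subunits that went the other way included Ndufa6, Ndufa7 and Ndufv3. Ndufa7 had 107, 92.4 and 86.2 CPM in WT, 70.4, 71.4 and 61.5 in PN and 67.1, 61.2 and 69.1 in PCN, with WT above all knockout libraries. Its log2 fold changes were -0.48 (SE 0.10) and -0.53 (SE 0.09), with edgeR adjusted p of 0.0011 and 3.6e-04. Ndufa6 was lower by -0.52 (SE 0.11) and -0.58 (SE 0.14) on the log2 scale and Ndufv3 by -0.52 (SE 0.17) and -0.61 (SE 0.16), with edgeR adjusted p from 0.0025 to 0.034. The Ndufv3 call in PN was lost without PN replicate 1, PN replicate 3, WT replicate 1 or WT replicate 2 (edgeR adjusted p 0.084, 0.10, 0.074 and 0.072, range over alternatives 1.1e-04 to 0.10). In PCN against PN Ndufs5 and Ndufb4 were lower, both by -0.27 (SE 0.07 and 0.08, edgeR adjusted p 0.0051 and 0.012), without overlap, and Ndufb10 was lower by as much (-0.27, SE 0.07, edgeR adjusted p = 0.0047) with overlap. The Ndufs5 call was lost without PCN replicate 2 (edgeR adjusted p = 0.06, range over alternatives 3.0e-04 to 0.06), that of Ndufb4 without PCN replicate 1 or PN replicate 1 (0.13 and 0.063, range 0.0015 to 0.13), and that of Ndufb10 with all libraries in 1 fit (0.70, range 1.2e-04 to 0.70).

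Ndufa4l2 and its relative Ndufa4 are named as complex I subunits, although the Ndufa4 protein was later assigned to complex IV, and Ndufa4l2 is known as a hypoxia-induced gene. Ndufa4l2 had 1033, 1010 and 517 CPM in WT, 311, 323 and 282 in PN and 349, 402 and 373 in PCN. WT replicate 3 lay between the other WT libraries and the knockout libraries, and no groups overlapped. The log2 fold change was -1.47 (SE 0.24, edgeR adjusted p = 0.0016) in PN and -1.18 (SE 0.25, edgeR adjusted p = 0.0083) in PCN, lost there without WT replicate 1 (edgeR adjusted p = 0.068, range over alternatives 3.1e-23 to 0.068). PCN was above PN by 0.30 (SE 0.06, edgeR adjusted p = 2.4e-04) and did not pass when all 9 libraries were fitted together (edgeR adjusted p = 0.89, range over alternatives 9.5e-06 to 0.89). Its gene overlaps Shmt2 on the opposite strand. Ndufa4 had 582, 496 and 521 CPM in WT, 467, 447 and 444 in PN and 420, 406 and 443 in PCN, with log2 fold changes of -0.23 (SE 0.07, edgeR adjusted p = 0.028) and -0.33 (SE 0.08, edgeR adjusted p = 0.0043). The PN call was lost without PN replicate 1, 2 or 3 or WT replicate 1 (edgeR adjusted p 0.061, 0.12, 0.12 and 0.11, range over alternatives 0.0031 to 0.12). This call was also lost with TMM scaling (edgeR adjusted p = 0.12).

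**Figure D3:**
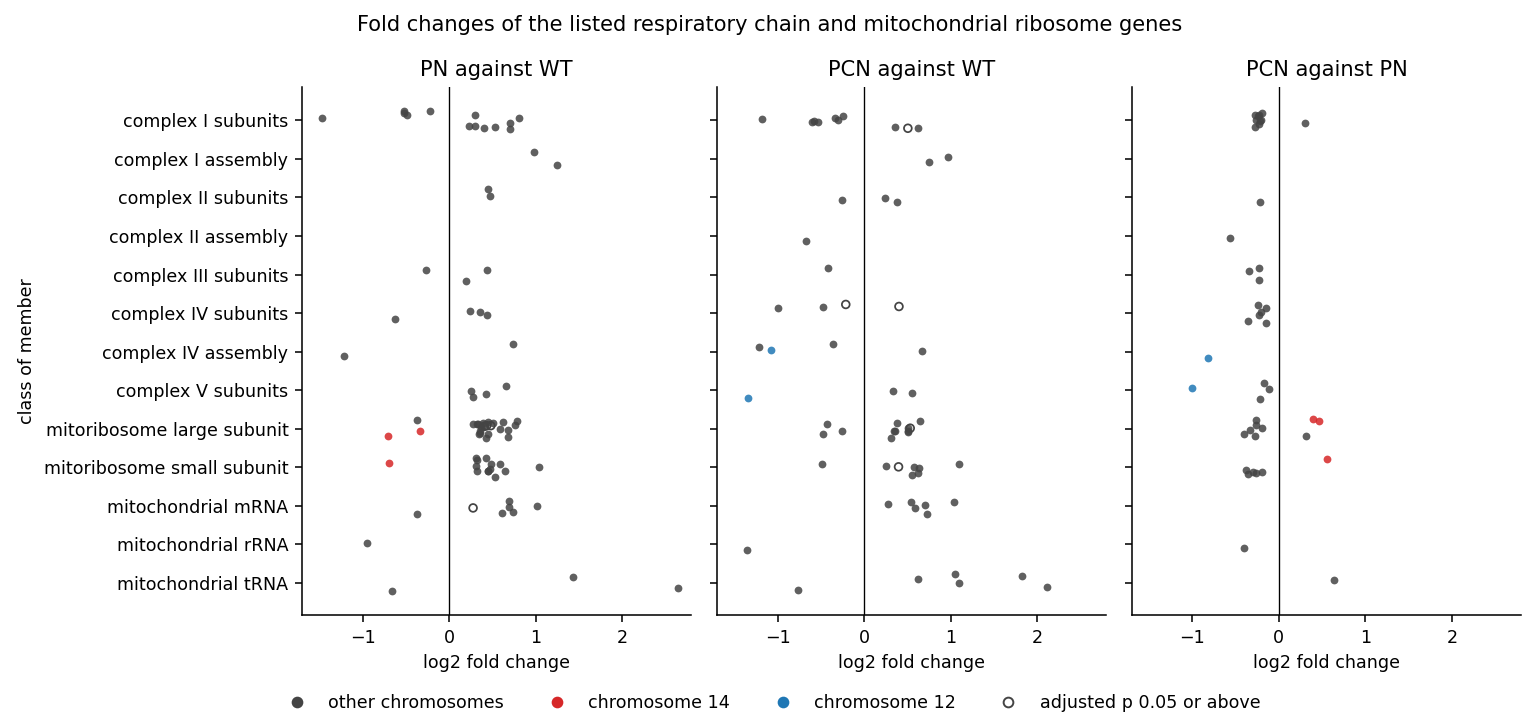
log2 fold change (horizontal axis) of every listed and fitted member by class (vertical axis) in the 3 comparisons. Filled points passed an adjusted p of 0.05 and open points did not; colours mark members on chromosomes 12 and 14. Most points of PN against WT lie to the right of 0 and most of PCN against PN to the left.

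Complex II, which also works in the citrate cycle, had 3 subunit members. Sdhb, its iron-sulphur subunit, was listed in all 3 tables with 79.1, 80.1 and 89.8 CPM in WT, 114, 111 and 117 in PN and 94.96, 99.98 and 98.9 in PCN, and no groups overlapped. It was higher by 0.47 in PN (SE 0.07, edgeR adjusted p = 1.9e-04) and by 0.24 in PCN (SE 0.08, edgeR adjusted p = 0.023), and lower in PCN than in PN by -0.22 (SE 0.05, edgeR adjusted p = 0.0012). The PCN call against WT was lost without PCN replicate 1, 2 or 3, WT replicate 1 or WT replicate 2 (edgeR adjusted p 0.051, 0.10, 0.084, 0.071 and 0.093, range over alternatives 5.3e-04 to 0.10). The membrane anchor Sdhd was higher in both (0.45, SE 0.11, and 0.38, SE 0.12) and the other anchor, Sdhc, listed for PCN against WT only, was lower (-0.25, SE 0.07). Their edgeR adjusted p were 0.0064, 0.018 and 0.013, and both PCN calls were lost without PCN replicate 1 (0.062 for Sdhd, range over alternatives 0.0021 to 0.087, and 0.063 for Sdhc, range 0.0017 to 0.063). Sdhd was also lost without PCN replicate 3 (0.087) or WT replicate 2 (0.054), and Sdhc without PCN replicate 2 (0.06) or with TMM scaling (0.058). Sdhaf3, an assembly factor, was lower in PCN than in WT (-0.68, SE 0.18, edgeR adjusted p = 0.0076) and than in PN (-0.57, SE 0.17, edgeR adjusted p = 0.0097), the latter lost without PN replicate 2 (edgeR adjusted p = 0.068, range over alternatives 0.008 to 0.068).

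Complex III had 5 members. Uqcrq, a small accessory subunit, had 138, 109 and 95.7 CPM in WT, 154, 163 and 145 in PN and 121, 107 and 134 in PCN. It was higher in PN by 0.44 (SE 0.12, edgeR adjusted p = 0.0096) and lower in PCN than in PN by -0.35 (SE 0.07, edgeR adjusted p = 0.0016), the latter lost with all libraries in 1 fit (edgeR adjusted p = 0.069, range over alternatives 1.1e-06 to 0.069). The core subunits differed in direction: Uqcrc1 was higher in PN by 0.20 (SE 0.07, edgeR adjusted p = 0.035), and Uqcrc2 was lower by -0.27 in PN (SE 0.10, edgeR adjusted p = 0.047) and by -0.41 in PCN (SE 0.10, edgeR adjusted p = 0.0059). Uqcrc2 had 201, 207 and 267 CPM in WT, 188, 177 and 191 in PN and 166, 179 and 160 in PCN, so WT replicate 3 stood above the rest. The PN call of Uqcrc2 was lost without PN replicate 1, 2 or 3 or WT replicate 3 (edgeR adjusted p 0.11, 0.19, 0.091 and 0.089, range over alternatives 0.0077 to 0.19). This call was also lost with TMM scaling (edgeR adjusted p = 0.16). That of Uqcrc1 was lost without PN replicate 1, 2 or 3 or WT replicate 1 or 2 (edgeR adjusted p 0.12, 0.08, 0.15, 0.068 and 0.15, range over alternatives 7.6e-04 to 0.15). Uqcrfs1, the Rieske iron-sulphur protein, and Uqcrh were lower in PCN than in PN, both by -0.23 (SE 0.05 and 0.06, edgeR adjusted p 4.4e-04 and 0.004).

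Complex IV had 8 subunit members. In PN against WT 3 were higher and 1 lower, beside 34.6% and 36.9% of all table genes. In PCN against WT 2 were lower, beside 37.6% of all table genes. In PCN against PN 6 were lower, beside 19.4%. Cox7a2l, which helps join complexes III and IV into supercomplexes, was the one nuclear member lower in all 3 comparisons. It had 321, 262 and 275 CPM in WT, 188, 185 and 178 in PN and 141, 137 and 153 in PCN, and no groups overlapped. The log2 fold changes were -0.63 (SE 0.08, edgeR adjusted p = 3.6e-05) in PN, -0.99 (SE 0.09, edgeR adjusted p = 7.0e-07) in PCN and -0.35 (SE 0.05, edgeR adjusted p = 1.6e-06) in PCN against PN. Its paralog Cox7a2 was higher in PN by 0.24 (SE 0.08, edgeR adjusted p = 0.022), lost without PN replicate 1, PN replicate 2 or WT replicate 2 (edgeR adjusted p 0.11, 0.11 and 0.05, range over alternatives 0.0052 to 0.11). Cox5a had 82.6, 73.8 and 69.6 CPM in WT, 95.2, 102 and 90.7 in PN and 77.7, 75.2 and 90.6 in PCN, higher in PN by 0.36 (SE 0.08, edgeR adjusted p = 0.0036) and lower in PCN than in PN by -0.24 (SE 0.07, edgeR adjusted p = 0.0065). The latter call was lost without PCN replicate 1, without PN replicate 2 and with all libraries in 1 fit (edgeR adjusted p 0.058, 0.063 and 0.055, range over alternatives 5.9e-05 to 0.063).

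Cox4i1, the broadly expressed form of subunit 4, was close in all groups: 343, 307 and 295 CPM in WT, 304, 297 and 300 in PN and 266, 263 and 286 in PCN. PCN against PN gave -0.15 (SE 0.04, edgeR adjusted p = 0.015), lost without PCN replicate 1, PCN replicate 2 or PN replicate 1 (edgeR adjusted p 0.083, 0.084 and 0.063, range over alternatives 0.0026 to 0.16), and PCN against WT gave -0.21 (SE 0.08, edgeR adjusted p = 0.05, not past the threshold). The PCN against PN call of Cox4i1 was also lost with the replicate block (edgeR adjusted p = 0.064) and with all libraries in 1 fit (edgeR adjusted p = 0.16). Cox6b1 (-0.20, SE 0.06, edgeR adjusted p = 0.0056) and Cox7c (-0.23, SE 0.07, edgeR adjusted p = 0.027) were lower in PCN than in PN. Both were lost without PCN replicate 2 (edgeR adjusted p 0.057, range over alternatives 2.4e-04 to 0.057, and 0.10, range 8.8e-04 to 0.26). Cox7c was also lost without PN replicate 1 (0.096) or 2 (0.083) and with all libraries in 1 fit (0.26). Cox7c was lower in PCN than in WT too, by -0.48 in the authors' values. That call was lost without WT replicate 3 (edgeR adjusted p = 0.089, range over alternatives 6.6e-04 to 0.089). The tissue-restricted forms Cox4i2, Cox6a2, Cox6b2, Cox7a1 and Cox8b are in none of the tables.

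Assembly factors of complex IV moved in opposite directions. Cox10, which makes heme O on the way to heme A, had 18.2, 20.01 and 16.8 CPM in WT, 32.9, 27.6 and 30.5 in PN and 27.2, 31.7 and 28.3 in PCN, with WT below all others. It was higher by 0.73 (SE 0.11, edgeR adjusted p = 1.5e-04) in PN and 0.67 (SE 0.11, edgeR adjusted p = 3.0e-04) in PCN. Cox15, which acts next in heme A synthesis, was lower in PCN than in WT by -0.36 (SE 0.09, edgeR adjusted p = 0.0071). Cox17, a copper chaperone, had 5.28, 4.76 and 4.90 CPM in WT, 1.72, 2.94 and 1.74 in PN and 2.53, 1.43 and 2.42 in PCN, so it fell by 1.21 on the log2 scale in each (SE 0.26 and 0.25, edgeR adjusted p 0.0019 and 0.0015). Cox17 lies outside the rule for named genes because of its low level and overlaps a predicted gene on its strand, and it was chosen after its values were seen.

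Complex V had 6 members, 4 (66.7%) higher and none lower in PN against WT at the threshold and 4 (66.7%) lower in PCN against PN. Of all table genes 34.6% were higher in PN against WT and 19.4% lower in PCN against PN. Atp5g1, one of several genes for the same proton-carrying ring subunit, had 33.4, 38.4 and 43.9 CPM in WT, 63.1, 62.4 and 55.4 in PN and 58.2, 55.7 and 55.4 in PCN. It was higher by 0.66 (SE 0.10, edgeR adjusted p = 2.0e-04) and 0.55 (SE 0.10, edgeR adjusted p = 4.6e-04). Atp5b, the catalytic beta subunit and the highest nuclear member in PN by FPKM (353), differed by less: 1271, 1221 and 1291 CPM in WT, 1534, 1450.5 and 1498 in PN and 1348, 1398 and 1401 in PCN, a rise of 0.26 in PN (SE 0.06, edgeR adjusted p = 0.005) and a fall of 0.11 in PCN against PN (SE 0.04, edgeR adjusted p = 0.042). That fall was lost with the replicate block (edgeR adjusted p = 0.22), with all libraries in 1 fit (0.20) and without PCN replicate 1, PCN replicate 3 or any 1 of the PN replicates (edgeR adjusted p 0.057 to 0.25, range over alternatives 0.0062 to 0.25). Atp5o, a subunit of the stalk, was higher by 0.43 (SE 0.09) in PN and 0.34 (SE 0.10) in PCN, with edgeR adjusted p of 0.0023 and 0.011, the latter lost without PCN replicate 2 (edgeR adjusted p = 0.051, range over alternatives 0.0022 to 0.051). Atp5f1 was higher in PN by 0.27 (SE 0.09, edgeR adjusted p = 0.024), lost without PN replicate 1, 2 or 3 or WT replicate 2 (edgeR adjusted p 0.10, 0.073, 0.052 and 0.067, range over alternatives 0.0023 to 0.10). Atp5f1 was lower in PCN than in PN by -0.21 (SE 0.04, edgeR adjusted p = 4.5e-04), lost with all libraries in 1 fit (edgeR adjusted p = 0.066, range over alternatives 6.5e-05 to 0.066). Atp5c1, the rotor's gamma subunit, was lower there by -0.17 (SE 0.04, edgeR adjusted p = 0.0033).

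**Figure D4:**
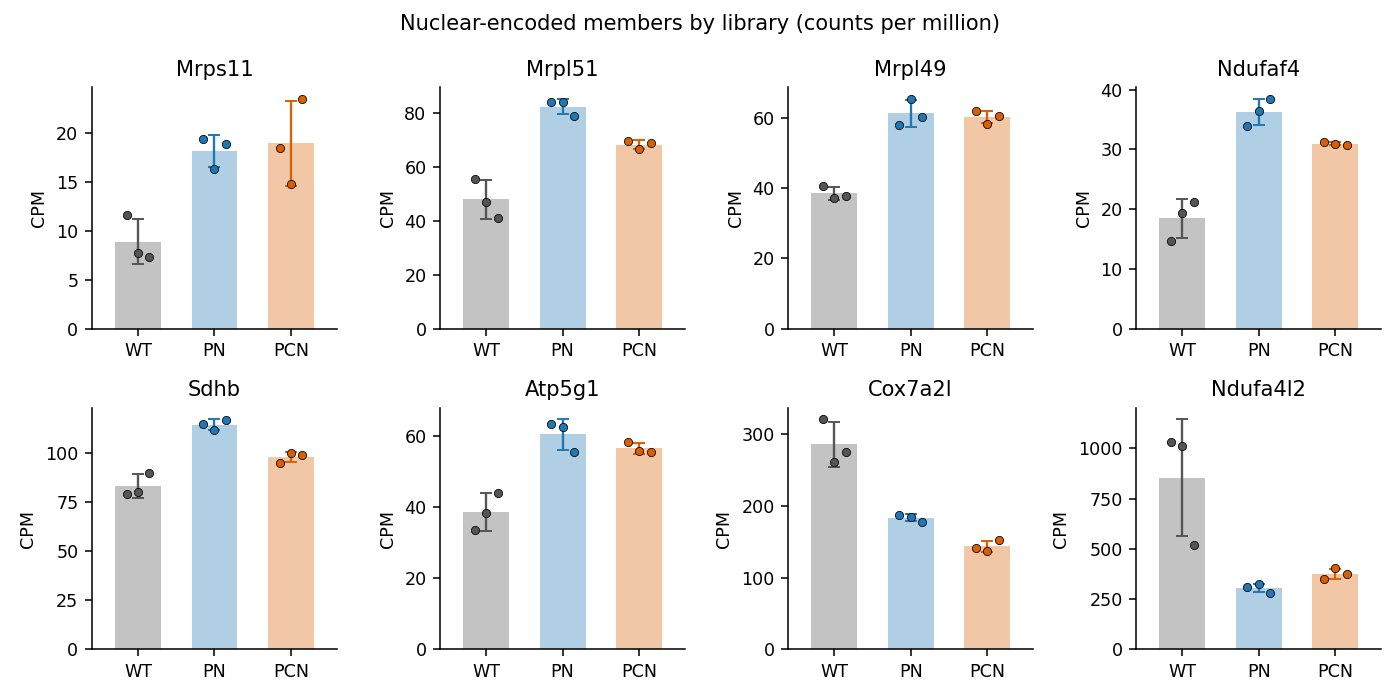
CPM (vertical axis) of 8 nuclear-encoded members in each library. Points are libraries, bars means of 3 libraries and error bars SD. Cox7a2l and Ndufa4l2 lie lower in both knockout groups than in WT, and the other 6 lie higher.

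In the large ribosome subunit 19 of 31 members (61.3%) were higher and 3 (9.68%) lower in PN against WT, beside 34.6% and 36.9% of all table genes. In PCN against WT 8 (25.8%) were higher and 3 (9.68%) lower, beside 34.6% and 37.6%. In PCN against PN 3 (9.68%) were higher and 6 (19.4%) lower, beside 20.7% and 19.4%. Mrpl51 had 55.7, 47.1 and 41.2 CPM in WT, 84.0, 84.1 and 79.0 in PN and 69.6, 66.5 and 68.9 in PCN, so the groups formed 3 separate levels. Its log2 fold changes were 0.79 (SE 0.10, edgeR adjusted p = 3.6e-05) in PN, 0.51 (SE 0.10, edgeR adjusted p = 9.7e-04) in PCN and -0.27 (SE 0.06, edgeR adjusted p = 4.1e-04) in PCN against PN. Mrpl49 had 40.7, 37.3 and 37.8 CPM in WT, 58.1, 65.5 and 60.4 in PN and 61.9, 58.4 and 60.6 in PCN, with log2 fold changes against WT of 0.68 (SE 0.08, edgeR adjusted p = 2.2e-05) and 0.65 (SE 0.08, edgeR adjusted p = 1.9e-05). Mrpl16 was higher in PN than in WT by 0.76 (SE 0.14, edgeR adjusted p = 6.6e-04) and lower in PCN than in PN by -0.41 (SE 0.09, edgeR adjusted p = 7.0e-04). Mrpl12, which is also known to bind the mitochondrial RNA polymerase, was higher by 0.59 (SE 0.11, edgeR adjusted p = 7.7e-04) in PN and 0.50 (SE 0.11, edgeR adjusted p = 0.003) in PCN.

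Mrpl24 and Mrpl30 went the other way. Mrpl24 had 64.5, 69.0 and 67.1 CPM in WT, 48.3, 52.5 and 53.1 in PN and 48.4, 47.8 and 48.2 in PCN, and its log2 fold changes were -0.37 (SE 0.08, edgeR adjusted p = 0.0015) and -0.47 (SE 0.08, edgeR adjusted p = 1.8e-04). Mrpl30 was lower in PCN by -0.43 (SE 0.09, edgeR adjusted p = 0.001).

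In the small ribosome subunit 13 of 17 members (76.5%) were higher and 1 (5.88%) lower in PN against WT, beside 34.6% and 36.9% of all table genes. In PCN against WT 6 (35.3%) were higher and 1 (5.88%) lower, beside 34.6% and 37.6%. In PCN against PN 1 (5.88%) was higher and 5 (29.4%) lower, beside 20.7% and 19.4%. Mrps11 had 11.6, 7.76 and 7.35 CPM in WT, 19.3, 16.3 and 18.9 in PN and 18.5, 14.8 and 23.5 in PCN, the largest change of any ribosome member: 1.04 (SE 0.17, edgeR adjusted p = 2.5e-04) and 1.09 (SE 0.20, edgeR adjusted p = 8.9e-04). Its gene overlaps Mrpl46 on the opposite strand. Mrps5 was higher by 0.64 in both (SE 0.14 and 0.13, edgeR adjusted p 0.0025 and 0.0022). Mrps18b was higher by 0.63 in PCN (SE 0.12, edgeR adjusted p = 6.5e-04), and Mrps10 was lower there by -0.48 (SE 0.09, edgeR adjusted p = 5.2e-04). Mrps21 and Mrps6 were lower in PCN than in PN by -0.36 (SE 0.07, edgeR adjusted p = 1.4e-04) and -0.38 (SE 0.09, edgeR adjusted p = 9.8e-04). Mrps6 overlaps Slc5a3 on its own strand, so the reads of both may be shared.

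Of the 5 nuclear members higher in PCN than in PN, 3 lie on chromosome 14, and all 3 were lower in PN than in WT. Mrpl52 (chr14:54426909-54429756) had 88.8, 76.6 and 78.1 CPM in WT, 52.7, 51.6 and 43.9 in PN and 63.6, 71.9 and 69.3 in PCN. Mrps16 (chr14:20389304-20393634) had 33.4, 32.4 and 31.5 CPM in WT, 22.1, 20.1 and 17.4 in PN and 27.1, 26.6 and 33.9 in PCN. Mrpl57 (chr14:57826234-57829296) had 47.8, 42.1 and 37.6 CPM in WT, 36.4, 35.3 and 28.4 in PN and 41.0, 41.0 and 49.2 in PCN. PN lay below both other groups for each of them. Against WT the log2 fold changes in PN were -0.71 (SE 0.09), -0.70 (SE 0.11) and -0.34 (SE 0.12), and in PCN against PN they were 0.47 (SE 0.07), 0.56 (SE 0.10) and 0.39 (SE 0.09), in the order Mrpl52, Mrps16, Mrpl57, with edgeR adjusted p from 6.0e-06 to 0.035. The Mrpl57 call against WT was lost without PN replicate 2, PN replicate 3, WT replicate 1 or WT replicate 2 (edgeR adjusted p 0.06, 0.20, 0.16 and 0.095, range over alternatives 0.0018 to 0.20). This call was also lost with TMM scaling (edgeR adjusted p = 0.11). The other 2 higher in PCN than in PN were Ndufa4l2 and Mrpl33 (0.31, SE 0.06, edgeR adjusted p = 1.5e-04).

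The 3 members on chromosome 14 moved in the direction of most table genes there. Of 394 such genes, 17 (4.31%) were higher and 259 (65.7%) lower in PN against WT, beside 34.6% and 36.9% of all table genes. In PCN against PN 322 (81.7%) were higher and 5 (1.27%) lower, beside 20.7% and 19.4%. Chromosome 12 held 2 members. Atp5s, a coupling factor of the ATP synthase (chr12:69724950-69744660), had 12.5, 10.1 and 12.5 CPM in WT, 10.8, 9.13 and 7.93 in PN and 4.51, 3.96 and 5.32 in PCN. Cox16, a complex IV assembly factor (chr12:81359026-81485127), had 7.15, 7.49 and 9.28 CPM in WT, 6.11, 6.66 and 7.14 in PN and 3.47, 3.79 and 4.03 in PCN. PCN lay below both other groups for each, by -1.34 (SE 0.17) against WT and -1.01 (SE 0.16) against PN for Atp5s and by -1.08 (SE 0.19) and -0.82 (SE 0.17) for Cox16, with edgeR adjusted p from 1.1e-05 to 4.0e-04. The PCN level of Cox16 is under 5 CPM, and its gene overlaps others on its strand. Of 413 table genes on chromosome 12, 47 (11.4%) were higher and 292 (70.7%) lower in PCN against WT, beside 34.6% and 37.6% of all table genes. In PCN against PN 23 (5.57%) were higher and 275 (66.6%) lower, beside 20.7% and 19.4%. The number of copies of these chromosomes was not tested. Off both chromosomes, 54 of 92 nuclear members were higher and 9 lower in PN against WT. These numbers were 23 and 18 in PCN against WT and 2 and 34 in PCN against PN. Of all table genes off both chromosomes, 36.7% were higher and 35.9% lower in PN against WT. The shares were 36.3% and 36.4% in PCN against WT and 18.4% and 17.9% in PCN against PN.

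**Figure D5:**
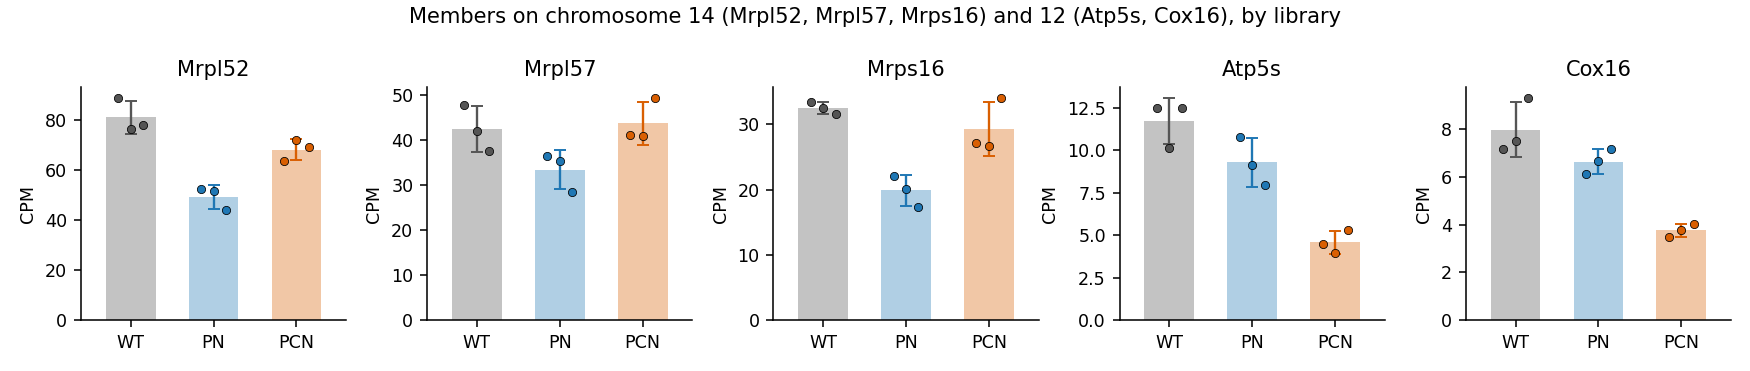
CPM (vertical axis) of the 3 members on chromosome 14 and the 2 on chromosome 12, by library; bars are means of 3 libraries and error bars SD. Mrpl52, Mrpl57 and Mrps16 are lowest in PN, and Atp5s and Cox16 are lowest in PCN.

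PN against WT and PCN against PN share the PN libraries, so a change in one is not independent of a change in the other, and the values of each stand side by side. Mrpl47, of the large ribosome subunit, was higher in PN than in WT by 0.50 (SE 0.17, edgeR adjusted p = 0.036), a call lost without any 1 of 5 libraries, WT replicate 3 excepted (edgeR adjusted p 0.078 to 0.16, range over alternatives 2.3e-05 to 0.16). It was lower in PCN than in PN by -0.34 (SE 0.09, edgeR adjusted p = 0.0067), lost with all libraries in 1 fit (edgeR adjusted p = 0.19, range over alternatives 0.0046 to 0.19). Ndufa11, of complex I, and Mrps23, of the small ribosome subunit, were higher in PN than in WT by 0.53 (SE 0.12) and 0.32 (SE 0.08), with edgeR adjusted p of 0.0043 and 0.0046. Both were lower in PCN than in PN by -0.23 (SE 0.07) and -0.20 (SE 0.06), with edgeR adjusted p of 0.0088 and 0.016. The latter calls were lost without PN replicate 1 (edgeR adjusted p 0.065, range over alternatives 0.0051 to 0.24, and 0.11, range 0.0071 to 0.11), Ndufa11 also without PCN replicate 2 (0.061) and Mrps23 without PCN replicate 3 (0.094), and both with all libraries in 1 fit (0.24 and 0.06). The falls in PCN against PN were small: the median over the 41 listed nuclear members was -0.23, and off chromosomes 12 and 14 the largest fall was -0.57.

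Other mitochondrial genes were taken from lists of their functions, and their counts stand beside 46.2% higher and 49.3% lower of all genes listed in PN against WT (median -0.26) and 45.3% and 49.2% in PCN against WT (median -0.28). Without chromosomes 12 and 14 the medians over all genes listed were 0.22 and 0.20. For mitochondrial import and protein quality control, with 17 of 38 genes in the tables, 13 were higher and 2 lower in PN and 10 higher and 3 lower in PCN against WT, with medians of 0.34 and 0.40 over those listed. Hspd1, the matrix chaperonin, averaged 397 CPM over the WT libraries, 666 over PN and 639 over PCN, with log2 fold changes of 0.76 (SE 0.07) and 0.69 (SE 0.07) against WT (edgeR adjusted p 1.6e-06 and 3.9e-06). Tomm40, the pore of the outer-membrane translocase, averaged 80.8 ± 8.70, 129 ± 7.14 and 130.0 ± 6.57 CPM (SD, n = 3). For mitochondrial DNA and RNA metabolism, 12 were higher and 2 lower in PN and 8 higher and 2 lower in PCN, of 15 in the tables, with medians of 0.45 and 0.47. The mitochondrial RNA polymerase Polrmt was higher in PCN by 0.81 (SE 0.10, edgeR adjusted p = 1.6e-05), and Fastkd5, which processes mitochondrial messenger RNA, in PN by 1.11 (SE 0.23, edgeR adjusted p = 0.0017). For other ribosome and translation factors, 13 were higher and 4 lower in PN and 9 higher and 1 lower in PCN, of 19 in the tables, with medians of 0.43 and 0.53. Among them was the methionyl-tRNA synthetase Mars2 (0.95, SE 0.10, edgeR adjusted p = 7.8e-06 in PN). Cytochrome c (Cycs), which carries electrons from complex III to IV, averaged 70.7 ± 1.76 CPM over the WT libraries, 115 ± 5.22 over PN and 93.2 ± 4.17 over PCN (SD, n = 3) and passed in all 3 comparisons (edgeR adjusted p 3.8e-06, 6.0e-04 and 6.8e-05).

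Of 19 citrate cycle and pyruvate genes in the tables, 6 were higher and 8 lower in PN, 2 higher and 10 lower in PCN against WT and 3 higher and 9 lower in PCN against PN. Of all genes listed for PCN against PN, 50.1% were higher and 47% lower. The citrate cycle and pyruvate medians were -0.28, -0.58 and -0.30, beside -0.26, -0.28 and 0.16 over all genes listed. Off chromosomes 12 and 14 the medians over all genes listed were 0.22, 0.20 and 0.14. No difference from the other lists was tested. Pyruvate carboxylase Pcx averaged 119 ± 12.8 CPM over the WT libraries, 86.4 ± 1.09 over PN and 55.4 ± 0.963 over PCN (SD, n = 3), and the pyruvate dehydrogenase kinase Pdk1 averaged 325 ± 2.74, 156 ± 10.4 and 157 ± 8.88. Dld and Dlst, subunits of the 2-oxoglutarate dehydrogenase complex on chromosome 12, were lower in PCN than in PN by -0.998 (SE 0.06) and -0.76 (SE 0.05), with edgeR adjusted p of 1.2e-14 and 1.8e-12. All 6 hypoxia-responsive mitochondrial genes in the tables were lower in PN and in PCN than in WT, with medians of -1.20 and -1.02 beside -0.26 and -0.28 over all genes listed, and Ndufa4l2 is one of them. In PCN against PN 3 of the 6 were listed, all higher in PCN, with a median of 0.61 beside 0.16. Of the regulators of nuclear respiratory genes, 5 were higher and 4 lower in PN and 6 higher and none lower at the threshold in PCN, among them the coactivator Pprc1 (0.42, SE 0.09, and 0.53, SE 0.09, edgeR adjusted p 0.0019 and 3.0e-04).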

How the data were processed

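Total RNA from mouse esophageal epithelial organoids, 3 libraries per group, was sequenced; CASAVA, DESeq and the build GRCm38 (mm10) are named in the submitters' processing notes. Aligner, counter, annotation release and strand setting: not given in the sources used here. Per the file headers, the authors deposited for each pair of groups raw counts per gene, normalized values (a signal, the count divided by a size factor per library), FPKM, the log2 fold change and the p-value with its adjusted form, for genes with an adjusted p under 0.05 only. Members and lists were chosen with earlier results of these data known.

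Library totals were recovered from counts, FPKM and gene length, and the authors' size factors from the normalized values. Both served as offsets in edgeR 4.0.16 (R 4.3.3; glmQLFit and glmQLFTest, robust, 1 fit per pair over all genes of its table, low counts removed by filterByExpr), with Benjamini-Hochberg adjustment over 17165 genes for PN with WT, 17300 for PCN with WT and 14758 for PCN with PN. A refit of genes already called on these libraries is not independent evidence. The SE was taken as the absolute log2 fold change divided by the root of the F statistic. DESeq2 1.42.0, TMM, library totals only, no filter, a replicate block, all libraries in 1 fit, and each library left out were alternatives. The fitting was tested on simulated data.

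Replicate numbers come from the sample titles, and the labels do not say that they pair libraries. The block fit was run for each pair of groups as an alternative. Deviations from the group means correlated at 0.2, 0.12 and 0.21 between same-numbered PN and WT libraries. Same-numbered libraries of the other pairs of groups gave negative values. PCN replicate 3 and WT replicate 1, of unlike numbers, correlated at 0.28, so these values do not establish a pairing. Named were every mitochondrial member; in each class and comparison the 3 largest changes past 0.05 among members without overlap whose higher group reached 5 CPM, and members against their class majority; the isoforms of Ndufa4 and Cox genes; and up to 3 genes per list. Ndufa7, Ndufa11, Ndufs1, Cox17, Atp5b, Mrpl33, Mrpl47, Mrps23 and the remaining comparisons of named members were added after their values were seen. GENCODE M21 held all 113 members, 105 at identical coordinates; 53 overlap another gene there. Promoter windows were matched by symbol to RefSeq for 83 of the 97 nuclear members.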

Additional observations from a re-analysis of the deposited data

How the results depend on the processing

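No named result changed direction under any alternative. Of 132 named results 130 passed, and 35 of these lost the call when at least 1 library was left out. Named members were largely chosen because they had passed without overlap, among genes the authors had called. The number that passed and the kept directions are therefore no independent check. With TMM scaling 5 named calls were lost, all of them lower calls. They were mt-Co1, Ndufa4, Uqcrc2 and Mrpl57 in PN against WT and Sdhc in PCN against WT. mt-Nd5 passed in PN against WT with that scaling (edgeR adjusted p = 0.039). Leaving out each library in turn gave 39 to 53 nuclear members higher and 8 to 11 lower in PN against WT, 16 to 24 and 16 to 20 in PCN against WT, and 5 to 5 and 28 to 34 in PCN against PN. Mitochondrial members lower in PN against WT numbered 1 to 3 then, beside 3. The mitochondrial share of PCN over PN was 0.917 to 1.04 then, beside 0.988, and crossed 1 without PN replicate 2 or 3 or PCN replicate 3.

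With all libraries in 1 fit, which only members with counts in all 9 can enter, 7 mitochondrial members were higher in PCN against WT instead of 11, and 3 nuclear members were higher and 12 lower in PCN against PN instead of 5 and 36. Of those listed, 4 mitochondrial and 15 nuclear members could not enter. That fit also lost 12 named calls. They were mt-Nd5 in PCN against WT and Ndufa4l2, Uqcrq, Cox5a, Cox7c, Cox4i1, Atp5f1, Ndufa11, Mrps23, Atp5b, Mrpl47 and Ndufb10 in PCN against PN. Without chromosome 14, or without chromosomes 12 and 14, 2 nuclear members were higher in PCN against PN in the main fit. With the replicate block, 56 nuclear members were higher and 12 lower in PN against WT, 22 and 19 in PCN against WT and 5 and 33 in PCN against PN; it changed the calls of mt-Nd5 in both comparisons with WT, of Sdhb in PCN against WT and of Cox4i1 and Atp5b in PCN against PN, and no other named call. Depth limits the transfer RNAs, which had 0 to 465 counts per library.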
